A study of Mus musculus with 12 samples.

Results

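The genes described here are the collagen chains and the enzymes and helpers that process them, in MTΔECad cells, a mouse mesenchymal breast cancer line, followed while the cells were induced to become adipocytes. The members are all protein-coding genes whose symbol names a collagen chain, plus the prolyl hydroxylase subunits P4ha1 to P4ha3, the lysyl hydroxylases Plod1 to Plod3, the lysyl oxidases Lox and Loxl1 to Loxl3, the chaperone Serpinh1 and the protease enhancer Pcolce. Of 52 such genes among the 17090 counted, 42 had at least 10 counts in at least 2 of the 12 libraries and were kept. These are 30 chains of 20 collagen types and 12 processing genes. The other 10 candidates, all of them chains (Col2a1, Col4a6, Col6a4, Col9a2, Col9a3, Col10a1, Col13a1, Col24a1, Col25a1 and Col26a1), had between 1 and 68 counts over all libraries together. Col4a3, Col4a4, Col6a6 and Col19a1 were not analysed here. Of the 42 members, 41 passed the filter on low counts and were tested, and Col14a1 did not.

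RNA was sequenced at 6 time points with 2 libraries each, from 2 independent experiments per the labels. Day 10 cells had received 200 ng/ml recombinant BMP2 for 3 days, then BMP2 with 2 µM rosiglitazone for 4 days, then 2 µM rosiglitazone alone for 3 days. Day 7 cells stood at the end of the combined treatment, day 5 cells were within it, and day 3 cells had received BMP2 alone. The 6 h cells had received BMP2 for 6 h, and the 0 h cells had received neither agent under this scheme. BMP2 is a growth factor of the TGF-beta superfamily, and rosiglitazone activates PPARγ, the nuclear receptor that drives fat cell formation. All groups come from the same line, whose name marks a loss of E-cadherin, and Cdh1, the E-cadherin gene, was at most 1.09 CPM (read counts scaled to a common library size by the trimmed mean of M values) in any library. No untreated cells of a matched age in culture were used here, so the agents and the time in culture cannot be told apart.

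Library totals ran between 12820802 and 17570366 counts. Fatty acid binding protein Fabp4 and 5 other adipocyte markers summed to 28831 to 30262 CPM at day 10, against 25.8 to 31.1 CPM at 0 h. The 5 smooth muscle and pericyte markers summed to 36.6 to 47.0 CPM at day 10, against 2162 to 2206 CPM at 0 h. Nearly all of the 0 h sum came from Acta2 (2047 and 2004 CPM) and Tagln (158 and 157 CPM). The other 3, Cnn1, Myh11 and Rgs5, stayed under 1 CPM in all libraries. The 5 mesenchymal cancer cell markers summed to 2750 to 3084 CPM at day 10, against 9040 to 9405 CPM at 0 h. The mesenchymal markers did not move as a set, and their sum was 10264 to 14960 CPM at day 3. At day 10 against 0 h, Vim, Cdh2 and Fn1 were lower (log2 fold changes -1.72, -1.72 and -1.69). Twist1 and Zeb1 were higher (1.01 and 0.19). The 5 endothelial markers summed to at most 3.98 CPM, and 3 of 5 fibroblast markers, Lum, Dcn and Thy1, stayed under 1 CPM in all libraries. The other fibroblast markers moved: Pdgfra had 128 and 155 CPM at day 10 against 17.6 and 21.9 CPM at 0 h (log2 fold change 2.84), and Pdgfrb 131 and 146 CPM at day 10 against 258 and 307 CPM at 0 h (-1.03). The 5 together summed to 259 to 303 CPM at day 10 and 637 to 736 CPM at day 3, against 275 to 329 CPM at 0 h. In such bulk samples, fewer cells of a kind and less RNA per cell cannot be told apart, and the part of these shifts in the results below was not tested.

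Collagens are secreted proteins whose chains wind around each other in a helix rich in glycine and proline. Fibril-forming collagens (types I, III, V, XI and XXVII among them) give tissues tensile strength, type IV forms the sheet of the basement membrane, and type VI forms beaded filaments at the edge of the basement membrane. Inside the cell, prolyl and lysyl hydroxylases modify the chains and the chaperone encoded by Serpinh1 holds the helix as it folds; outside it, propeptides are clipped off and lysyl oxidases begin the cross-links. Mature fat cells are each wrapped in a basement membrane, and type VI collagen is an abundant matrix component of adipose tissue.

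The promoter windows of the 5 chains that made up most of the collagen signal are shown first, since type VI and type IV chains changed place in rank over the time course. The windows are from RefSeq (GRCm38.p6), run 5′ to 3′ on the coding strand and cover 250 bases before to 50 bases after the annotated start. Capitals mark 3 short motifs on either strand: the CCAAT box (CCAAT, or ATTGG on the other strand), the TATA box (its letters TATAAA, reversed as TTTATA) and the GC box (letters GGGCGG, reversed as CCGCCC). For Col6a2, which has 2 windows in the table, the outer one is given.
Col6a1 (chr10:76725995-76726294, minus strand): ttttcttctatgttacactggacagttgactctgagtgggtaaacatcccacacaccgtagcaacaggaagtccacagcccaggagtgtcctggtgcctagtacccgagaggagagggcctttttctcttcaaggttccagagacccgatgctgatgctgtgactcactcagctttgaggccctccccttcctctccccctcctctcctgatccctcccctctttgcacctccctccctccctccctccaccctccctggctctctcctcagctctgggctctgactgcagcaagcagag.
Col6a2 (chr10:76623581-76623880, minus strand): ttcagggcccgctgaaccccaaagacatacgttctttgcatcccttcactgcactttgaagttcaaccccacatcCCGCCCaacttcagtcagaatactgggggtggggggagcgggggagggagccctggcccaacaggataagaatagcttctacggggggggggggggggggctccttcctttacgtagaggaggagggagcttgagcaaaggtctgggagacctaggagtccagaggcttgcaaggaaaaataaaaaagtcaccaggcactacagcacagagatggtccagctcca.
Col6a3 (chr1:90843922-90844221, minus strand): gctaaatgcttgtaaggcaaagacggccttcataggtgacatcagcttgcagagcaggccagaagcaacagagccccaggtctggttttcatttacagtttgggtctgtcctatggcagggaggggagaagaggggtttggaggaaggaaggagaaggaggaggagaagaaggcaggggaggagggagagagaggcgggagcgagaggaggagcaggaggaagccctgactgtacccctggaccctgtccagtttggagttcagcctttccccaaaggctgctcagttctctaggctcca.
Col4a1 (chr8:11312777-11313076, minus strand): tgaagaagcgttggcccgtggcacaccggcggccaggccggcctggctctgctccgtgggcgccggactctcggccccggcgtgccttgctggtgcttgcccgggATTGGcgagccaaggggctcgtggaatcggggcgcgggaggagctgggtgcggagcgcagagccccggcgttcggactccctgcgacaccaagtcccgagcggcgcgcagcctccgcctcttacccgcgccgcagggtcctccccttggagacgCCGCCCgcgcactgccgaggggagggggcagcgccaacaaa.
Col4a2 (chr8:11312555-11312854, plus strand): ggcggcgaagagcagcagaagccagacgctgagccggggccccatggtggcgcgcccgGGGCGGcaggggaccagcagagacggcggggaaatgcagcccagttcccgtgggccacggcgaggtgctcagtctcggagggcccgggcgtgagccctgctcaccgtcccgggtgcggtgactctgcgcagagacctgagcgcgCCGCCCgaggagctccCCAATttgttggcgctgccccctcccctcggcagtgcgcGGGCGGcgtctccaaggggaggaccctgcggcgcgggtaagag.
None of the capitalised motifs was found in the Col6a1 and Col6a3 windows, and the Col6a2 window shown held 1 GC box match. Col4a1 and Col4a2 lie head to head on chromosome 8: their annotated transcripts share 22 bases and their windows share 78 bases. The GC content was 74.0% and 73.7% in the Col4a1 and Col4a2 windows, and 57.3%, 56.7% and 56.3% in the Col6a1, Col6a2 and Col6a3 windows shown, beside a median of 56.3% over the windows of protein-coding genes. The inner Col6a2 window, not shown, had a GC content of 64.3% and held 3 GC box matches. Col6a1 and Col6a2 lie 85161 bases apart on chromosome 10. Over the 32 members with a window (35 windows), 34.3% of windows held the CCAAT box, 14.3% the TATA box and 68.6% the GC box, on either strand; matches of different motifs did not need to be apart. Over 21262 windows of protein-coding genes the shares were 38.2%, 12.6% and 46.2% in the same order. A match is a run of letters and not a tested binding site. Windows of Col1a1, Col5a2, Col12a1, Col14a1, Col22a1, Plod2, Lox, Loxl1, Loxl2 and Loxl3 were not analysed here, so the member shares do not cover these genes.

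**Figure D1:**
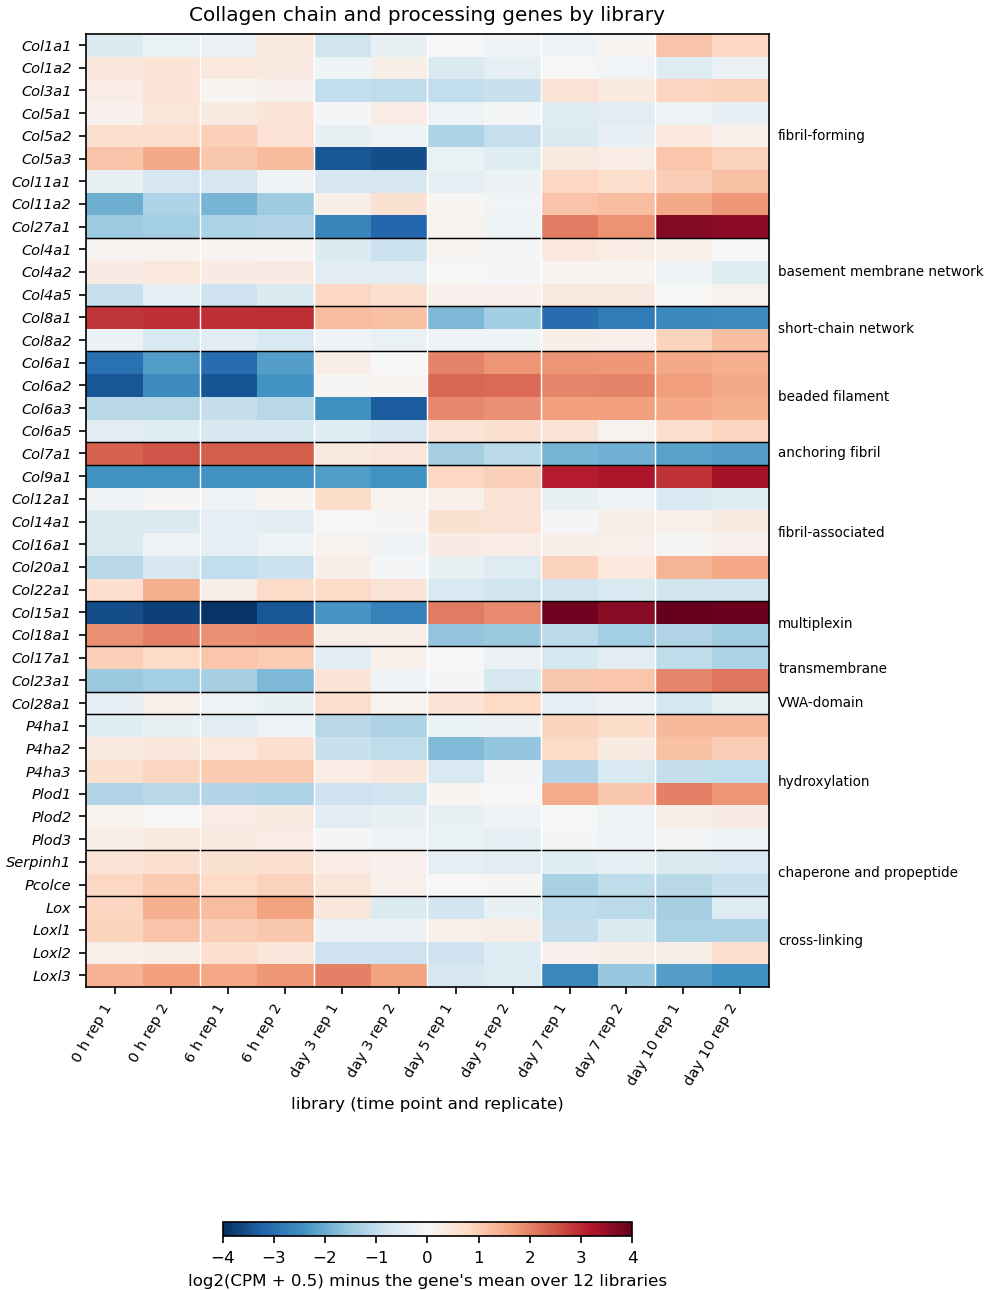
Level of the 42 members in each of the 12 libraries, as log2(CPM + 0.5) minus the gene's mean over the libraries, with genes grouped by role down the page and libraries in time order across it; colours stop at 4 log2 units either way. The type VI chains Col6a1 to Col6a3 are above their mean in every library of days 5 to 10, while Col8a1, Col7a1 and Col18a1 are above theirs at 0 h, 6 h and day 3.

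Type VI chains took most of the collagen chain counts from day 5 on, and over 50% of the summed chain level per length from day 3 on. By counts, their share of the collagen chain counts was 8.92% and 10.9% at 0 h, 39.8% and 38.2% at day 3, and 61.7% and 61.6% at day 10. Collagen chains together took 0.571% and 0.643% of all counts in the 0 h libraries, 0.569% and 0.604% at 6 h, 0.728% and 0.643% at day 3, 1.51% and 1.39% at day 5, 1.24% and 1.25% at day 7, and 1.01% and 0.984% at day 10. Every library of days 5 to 10 lay above every earlier one. Per length, which allows levels of different genes to be set side by side, type VI made up 9.98% and 13.4% of the summed chain CPM per kb at 0 h, 9.98% and 14.7% at 6 h, 52.7% and 50.9% at day 3, 79.9% and 78.4% at day 5, 71.8% and 72.8% at day 7, and 69.8% and 69.6% at day 10. The share of type IV fell as that of type VI grew, with 48.4% and 45.0% at 0 h, 49.0% and 45.3% at 6 h, 29.5% in both day 3 libraries, 14.4% and 14.7% at day 5, 18.4% and 17.9% at day 7, and 17.6% and 16.7% at day 10. Its summed level was much steadier than its share, with 411 and 437 CPM per kb at 0 h, 356 and 310 CPM per kb at day 3, 513 and 486 CPM per kb at day 7, and 429 and 387 CPM per kb at day 10. By mean CPM per kb, the highest chain was Col6a1 at day 10, with 1220 ± 35.8 CPM per kb, and Col4a1 at 0 h, with 272 ± 3.20 CPM per kb (SD, n = 2 each).

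**Figure D2:**
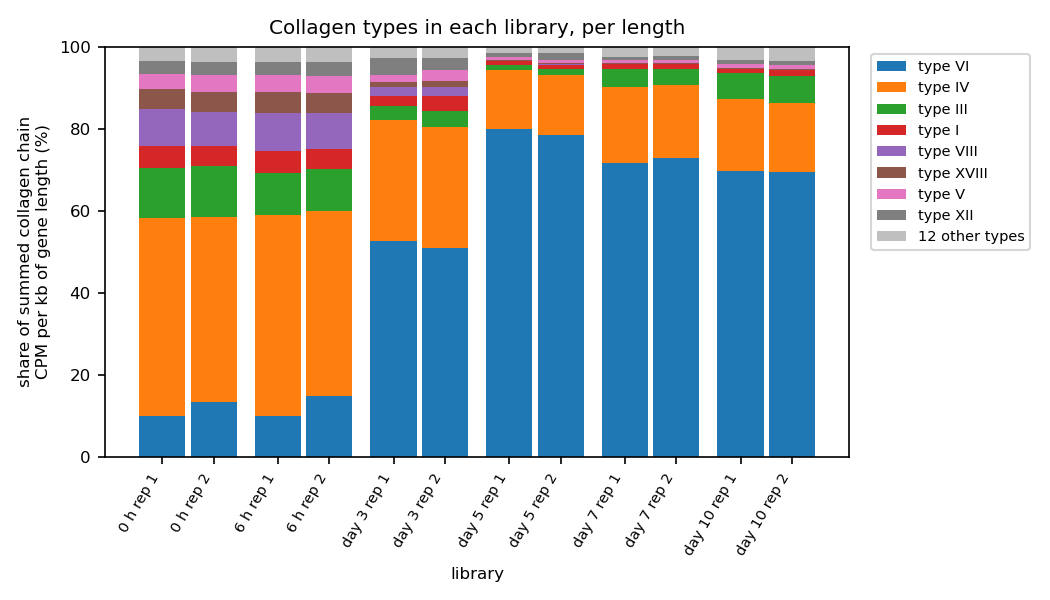
Share of each collagen type in the summed CPM per kb of gene length over the 30 chains, in percent, with 1 bar per library in time order. The type VI part of the bar covers 69.8% and 69.6% in the day 10 libraries, against 9.98% and 13.4% in the 0 h libraries.

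Col6a1, Col6a2 and Col6a3 encode the chains that assemble into the common form of type VI collagen. Col6a1 had 215 and 364 CPM at 0 h, 208 and 375 CPM at 6 h and 2076 and 1687 CPM at day 3. Col6a1 then had 6801 and 5852 CPM at day 5, 5841 and 5714 CPM at day 7, and 4952 and 4751 CPM at day 10. Col6a2 had 34.4 and 65.7 CPM at 0 h, 33.6 and 70.8 CPM at 6 h and 393 and 394 CPM at day 3. Col6a2 then had 1843 and 1806 CPM at day 5, 1449 and 1504 CPM at day 7, and 1201 and 1081 CPM at day 10. For both genes the 2 libraries of 0 h and of 6 h were far apart, yet all 4 lay below every later library. Fold changes are log2 values from edgeR's quasi-likelihood test with their SE, and a change is called where its p, adjusted over all genes tested by Benjamini-Hochberg, is below 0.05. At day 10 against 0 h the log2 fold change was 4.07 (SE 0.36, adjusted p = 2.51e-05, edgeR) for Col6a1 and 4.50 (SE 0.43, adjusted p = 4.93e-05, edgeR) for Col6a2. The day 5 libraries of both genes stood above their day 10 libraries.

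Col6a3, the longest of these chains, first fell and then rose. It had 230 CPM in both 0 h libraries, 254 and 231 CPM at 6 h and 89.0 and 48.2 CPM at day 3. Col6a3 then had 1874 and 1762 CPM at day 5, 1540 and 1546 CPM at day 7, and 1457 and 1355 CPM at day 10. Both day 3 libraries were the lowest of the 12, at the time when Col6a1 and Col6a2 were already up. At day 3 against 0 h the log2 fold change was -1.74 (SE 0.23, adjusted p = 0.000175) for Col6a3, 2.70 (SE 0.34, adjusted p = 0.000302) for Col6a1 and 2.97 (SE 0.40, adjusted p = 0.000538) for Col6a2. At day 5 against day 3, Col6a3 rose by a log2 fold change of 4.73 (SE 0.26, adjusted p = 5.19e-07). The ratio of Col6a1 to Col6a3 in CPM per kb was 63.6 and 95.5 in the day 3 libraries, against 2.55 and 4.31 at 0 h, and it was 9.27 and 9.56 at day 10. Col6a5, a chain related to Col6a3, was near the limit of detection, with 20 counts over both day 10 libraries against 2 counts over both 0 h libraries, a ratio of 12.3 (95% exact counting interval 2.99 to 109). Of the 3 main type VI chains, none was called at day 7 against day 5 or at day 10 against day 7. The fit on only the 4 libraries compared did call Col6a2 (-0.30) and Col6a3 (-0.23) lower at day 7 than at day 5, and Col6a1 (-0.26) and Col6a2 (-0.38) lower at day 10 than at day 7. The fit without the filter called the same changes, with -0.29, -0.22, -0.27 and -0.39 in the same order.

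**Figure D3:**
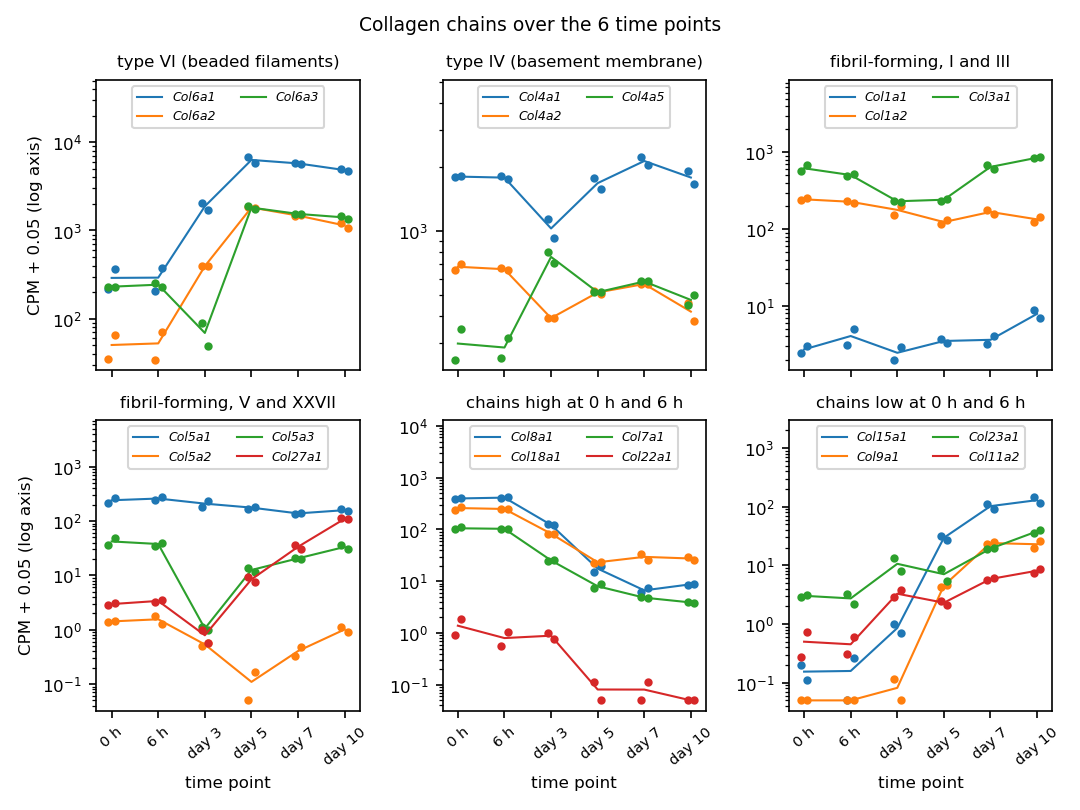
CPM + 0.05 of 21 collagen chains over the 6 time points, on log axes that differ between panels; points are the 2 libraries of a time point and lines join their means. Col6a3 and Col5a3 dip at day 3 to means of 68.6 and 1.00 CPM, while Col6a1 and Col6a2 rise without a dip.

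Type IV chains moved less, and not together. Col4a1 had 1792 and 1822 CPM at 0 h, 1814 and 1759 CPM at 6 h and 1137 and 925 CPM at day 3. Col4a1 then had 1785 and 1582 CPM at day 5, 2229 and 2048 CPM at day 7, and 1916 and 1661 CPM at day 10. Its day 10 libraries stood on either side of the 0 h libraries, with a log2 fold change of -0.01 (SE 0.10, adjusted p = 0.896). With library totals alone as scaling it was called lower (-0.37, adjusted p = 0.00133). Col4a2, its head-to-head neighbour, had 661 and 702 CPM at 0 h, 390 and 392 CPM at day 3, 563 and 568 CPM at day 7, and 459 and 380 CPM at day 10, and fell by 0.70 on the log2 scale at day 10 against 0 h (SE 0.082, adjusted p = 4.9e-07). At day 3 against 0 h both fell by like amounts, with log2 fold changes of -0.81 (SE 0.10) for Col4a1 and -0.80 (SE 0.082) for Col4a2. The ratio of Col4a1 to Col4a2 in CPM per kb was 4.06 and 4.25 at day 10, against 2.64 and 2.52 at 0 h, and the groups do not overlap. Col4a5, an X-linked type IV chain, ran opposite to both at day 3, with 803 and 713 CPM at day 3 against 248 and 346 CPM at 0 h (log2 fold change 1.35, SE 0.14, adjusted p = 6.09e-06). It was still higher at day 10, with 449 and 503 CPM (log2 fold change 0.68, adjusted p = 0.000937), a call that was lost in the fit on only the 4 libraries compared (0.66, adjusted p = 0.104) and with library totals alone as scaling (0.33, adjusted p = 0.058).

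The fibril-forming chains split, with 5 of 9 higher, 3 lower and 1 not called at day 10 against 0 h. That is 55.6% higher and 33.3% lower, beside 42.8% and 39.9% of all genes tested. Col3a1, the type III chain and the most abundant of them, had 566 and 676 CPM at 0 h, 489 and 524 CPM at 6 h and 233 and 228 CPM at day 3. Col3a1 then had 235 and 248 CPM at day 5, 684 and 608 CPM at day 7, and 838 and 866 CPM at day 10. It was low at days 3 and 5 and came back in the next step, with a log2 fold change of -1.43 (SE 0.089, adjusted p = 3.85e-10) at day 3 against 0 h and of 1.42 (SE 0.089, adjusted p = 5.32e-09) at day 7 against day 5. Its gain at day 10 against 0 h, 0.46 (adjusted p = 0.000125), was not called with library totals alone as scaling (0.10, adjusted p = 0.272).

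The type I chains were unequal in level and moved in opposite directions, which brought their levels closer. Col1a2 had 122 and 146 CPM at day 10 against 238 and 251 CPM at 0 h, a fall by 0.87 on the log2 scale (SE 0.13, adjusted p = 3.11e-05). Col1a1 had 8.69 and 6.97 CPM at day 10 against 2.35 and 2.97 CPM at 0 h, a log2 fold change of 1.54 (SE 0.27, adjusted p = 4.61e-05). The ratio of Col1a2 to Col1a1 in CPM per kb was 15.9 and 23.9 at day 10, against 115 and 96.2 at 0 h, so Col1a1 stayed the lower chain throughout. As background, the usual type I molecule holds more Col1a1 than Col1a2 chains.

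Col27a1, a fibril-forming chain known from cartilage, had 2.79 and 3.03 CPM at 0 h, 3.25 and 3.42 CPM at 6 h and 0.953 and 0.526 CPM at day 3. Col27a1 then had 9.39 and 7.40 CPM at day 5, 36.3 and 30.7 CPM at day 7, and 113 and 107 CPM at day 10. It was called in every step from day 3 on: lower at day 3, then higher at days 5, 7 and 10 than at the time point before. Its log2 fold change at day 10 against 0 h was 5.23 (SE 0.15, adjusted p = 6.24e-15). The type XI chains, also known from cartilage, rose from low levels: Col11a2 had 7.44 and 8.65 CPM at day 10 against 0.220 and 0.680 CPM at 0 h (log2 fold change 4.08, SE 0.34, adjusted p = 7.45e-09), and the value was 5.14 without replicate 2 of 0 h. Col11a1 had 29 counts over both day 10 libraries against 2 over both 0 h libraries, a ratio of 17.8 (95% exact counting interval 4.51 to 154).

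Type V chains, which help set the width of type I fibrils, were lower or not called at day 10. Apart from Loxl2, which was near 0, Col5a3 showed the deepest fall of the members at day 3. It had 36.2 and 47.9 CPM at 0 h, 35.2 and 40.2 CPM at 6 h and 1.08 and 0.921 CPM at day 3. Col5a3 then had 13.4 and 11.6 CPM at day 5, 20.8 and 20.2 CPM at day 7, and 35.7 and 30.9 CPM at day 10. The log2 fold change was -5.38 (SE 0.21, adjusted p = 6.61e-13) at day 3 against 0 h and 3.63 (SE 0.23, adjusted p = 5.98e-10) at day 5 against day 3. By day 10 its libraries were just below the 0 h range (-0.34, adjusted p = 0.021), a call that was lost without replicate 2 of 0 h (-0.12, adjusted p = 0.422) or of day 10 (-0.24, adjusted p = 0.183). Col5a1 had 165 and 152 CPM at day 10 against 215 and 267 CPM at 0 h (log2 fold change -0.60, SE 0.12, adjusted p = 0.000429). Col5a2 was under 2 CPM in all libraries and was not called at day 10 against 0 h (-0.53, adjusted p = 0.247).

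**Figure D4:**
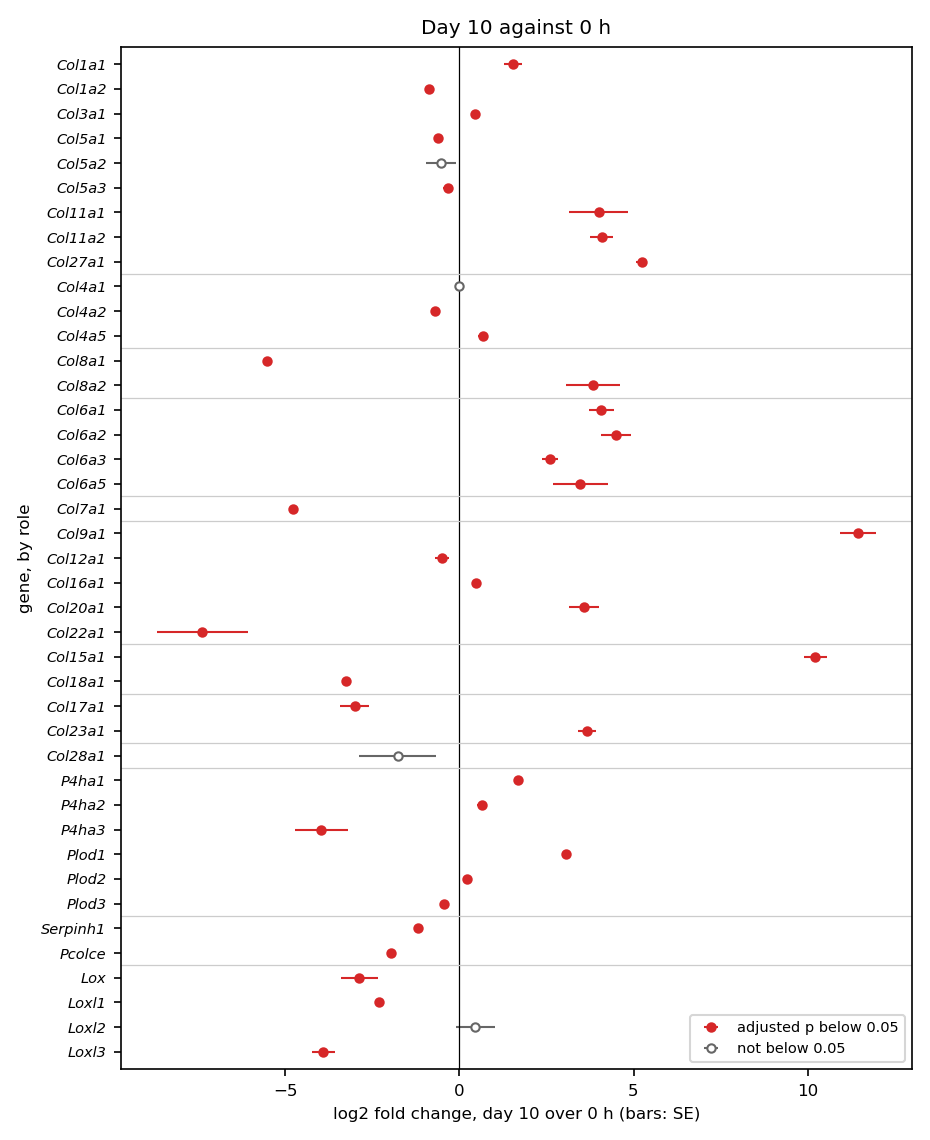
Log2 fold change at day 10 over 0 h with its SE for the 41 tested members, grouped by role down the page; filled points have an adjusted p below 0.05 (edgeR) and open points do not. Col9a1, at 11.44, and Col22a1, at -7.38, mark the ends, and both rest on a group with no counts, so that their fitted values are no bounds.

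Several chains that were high at 0 h were nearly gone at day 10. Col8a1, a short-chain network collagen known from vessel walls and the cornea, had 387 and 407 CPM at 0 h, 407 and 418 CPM at 6 h and 125 and 120 CPM at day 3. Col8a1 then had 14.9 and 20.1 CPM at day 5, 6.02 and 7.22 CPM at day 7, and 8.51 and 8.88 CPM at day 10. It fell by 5.51 on the log2 scale at day 10 against 0 h (SE 0.12, adjusted p = 2.81e-16). Col7a1, the anchoring fibril chain that ties skin epithelium to the dermis, had 3.94 and 3.75 CPM at day 10 against 100 and 111 CPM at 0 h (log2 fold change -4.78, SE 0.12, adjusted p = 1.28e-15). Both genes were called lower at day 3, at day 5 and at day 7 than at the time point before (0 h for day 3), and their day 10 and 0 h libraries were far apart.

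The basement membrane multiplexins went in opposite directions. Col18a1, whose C-terminal fragment is endostatin, had 242 and 277 CPM at 0 h, 244 and 254 CPM at 6 h and 83.0 CPM in both day 3 libraries. Col18a1 then had 22.4 and 24.0 CPM at day 5, 32.9 and 26.2 CPM at day 7, and 29.1 and 25.8 CPM at day 10, a fall by 3.24 on the log2 scale at day 10 against 0 h (SE 0.10, adjusted p = 2.23e-14). Col15a1 had 0.147 and 0.0618 CPM at 0 h, 0 and 0.217 CPM at 6 h and 0.953 and 0.658 CPM at day 3. Col15a1 then had 31.5 and 27.3 CPM at day 5, 112 and 91.7 CPM at day 7, and 144 and 114 CPM at day 10. That is 3103 counts over both day 10 libraries against 3 over both 0 h libraries, a ratio of 1272 (95% exact counting interval 435 to 6173). By mean CPM per kb Col15a1 took rank 10 of 30 chains at day 10, against rank 25 at 0 h, while Col18a1 took rank 17 at day 10 and rank 8 at 0 h.

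Among fibril-associated chains, Col9a1, a cartilage collagen chain, had no count at 0 h or 6 h and 1 count over both day 3 libraries. It had 4.29 and 4.65 CPM at day 5, 23.0 and 24.8 CPM at day 7, and 19.3 and 26.3 CPM at day 10, and was at least 229-fold higher at day 10 than at 0 h, taking a floor of 3 counts over the 0 h group. The other type IX chains, Col9a2 and Col9a3, had 20 and 39 counts over all 12 libraries and were not among the members. Col20a1 had 3.05 and 3.52 CPM at day 10 against 0.147 and 0.371 CPM at 0 h (log2 fold change 3.58, SE 0.44, adjusted p = 1.02e-06), and the value was 4.41 without replicate 2 of 0 h. Col22a1, known from the junction of muscle and tendon, had no count at day 10 against 0.881 and 1.79 CPM at 0 h, which is at least 11.1-fold lower.

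The abundant fibril-associated chains changed by less than 2-fold. Col12a1 had 227 and 246 CPM at day 10 against 315 and 356 CPM at 0 h, a log2 fold change of -0.50 (SE 0.20, adjusted p = 0.0416). That call was lost when either 0 h, day 7 or day 10 library was left out, with adjusted p between 0.0547 and 0.157, and with the replicate number as a block (-0.50, adjusted p = 0.0707). Col16a1 had 129 and 143 CPM at day 10 against 84.5 and 110 CPM at 0 h (log2 fold change 0.48, SE 0.13, adjusted p = 0.0032), and was not called with library totals alone as scaling (0.13, adjusted p = 0.344). Col14a1, the untested member, had 10 counts over both day 10 libraries and none at 0 h.

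The transmembrane chains also parted. Col23a1 had 35.4 and 40.4 CPM at day 10 against 2.86 and 3.09 CPM at 0 h (log2 fold change 3.66, SE 0.25, adjusted p = 8.76e-09). Col17a1, a hemidesmosome component of epithelia, had 0.448 and 0.306 CPM at day 10 against 3.23 and 2.84 CPM at 0 h (log2 fold change -3.00, SE 0.42, adjusted p = 4.34e-06). Of the 2 remaining chains, Col8a2 had 26 counts over both day 10 libraries against 2 over both 0 h libraries, a ratio of 16.0 (95% exact counting interval 4.00 to 139), and Col28a1 stayed under 1 CPM in all libraries and was not called (-1.77, adjusted p = 0.133). Only the day 10 libraries of Col8a2 reached 10 counts, so it passed the member rule through the group where it is higher. Its ratio and its place among the members called higher at day 10 are therefore not free of that rule.

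Over all roles, 16 of 29 tested chains rose and 10 fell at day 10 against 0 h. With the processing genes included, 20 of 41 members (48.8%) rose, beside 42.8% of the 12740 genes tested, and 17 (41.5%) fell, beside 39.9% of all genes tested. Shares this near the background do not set the members apart by the number called. At 2-fold or more, 15 members (36.6%) were called higher and 11 (26.8%) lower, beside 27.3% and 23.5% of all genes tested. The median log2 fold change was 0.21 over the members, also with low-count members set at their bound, and 0.06 over all genes tested. With library totals alone as scaling the median of all genes moved to -0.30, and 16 members were called higher and 18 lower.

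**Figure D5:**
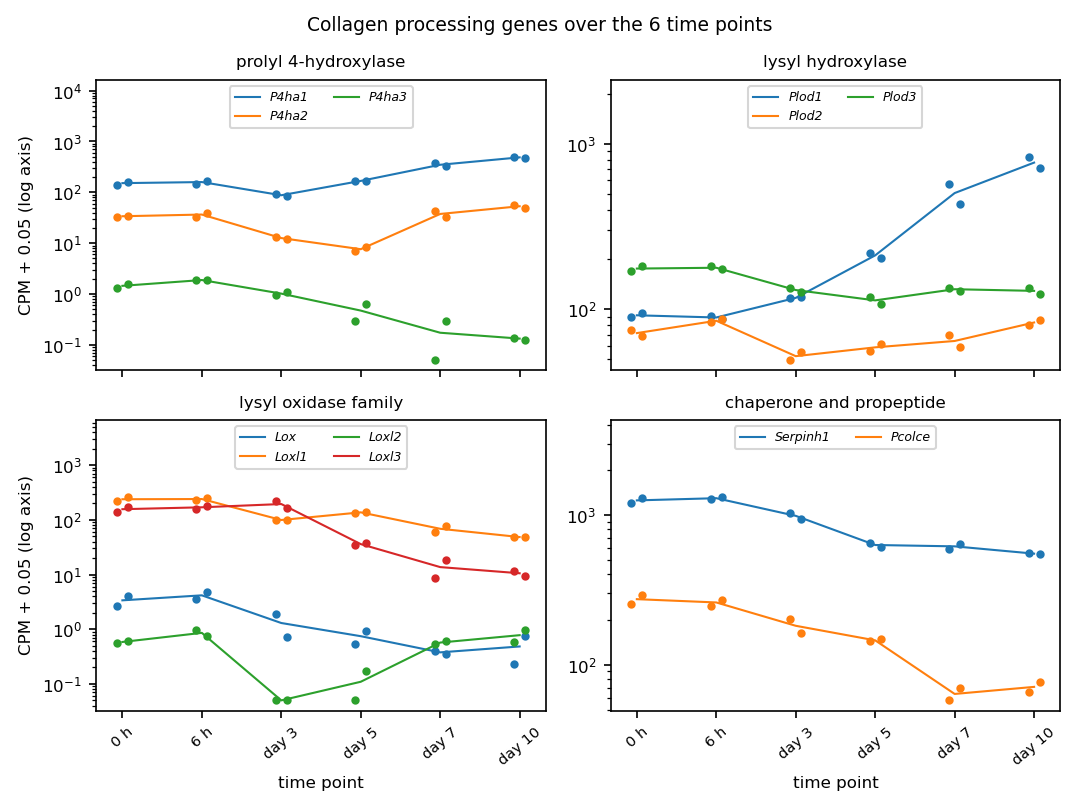
CPM + 0.05 of the 12 processing genes over the 6 time points, on log axes that differ between panels; points are the 2 libraries of a time point and lines join their means. Plod1 reaches 830 and 709 CPM at day 10, against 89.1 and 94.5 CPM at 0 h, while Serpinh1, Pcolce, Loxl1 and Loxl3 are lower at day 10.

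Among the processing genes, 4 rose, 7 fell and 1 was not called at day 10 against 0 h. That is 33.3% higher and 58.3% lower, beside 42.8% and 39.9% of all genes tested. Those that rose were all hydroxylases, 4 of 6, while 3 of 4 lysyl oxidases, Serpinh1 and Pcolce fell. P4ha1, a catalytic subunit of prolyl 4-hydroxylase, had 141 and 162 CPM at 0 h, 148 and 170 CPM at 6 h and 92.2 and 82.9 CPM at day 3. P4ha1 then had 166 and 169 CPM at day 5, 369 and 327 CPM at day 7, and 491 and 482 CPM at day 10 (log2 fold change 1.68 at day 10 against 0 h, SE 0.09, adjusted p = 1.59e-11). P4ha2, the second subunit form, fell to 6.90 and 8.23 CPM at day 5 and stood at 57.1 and 49.3 CPM at day 10, against 33.0 and 34.6 CPM at 0 h (log2 fold change 0.65, SE 0.13, adjusted p = 0.000278). P4ha3 had 2 counts over both day 10 libraries against 42 over both 0 h libraries, 17.1-fold lower (95% exact counting interval 4.44 to 146).

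Plod1, a lysyl hydroxylase that acts on the helical part of the chain, showed the strongest rise of the processing genes. It had 89.1 and 94.5 CPM at 0 h, 90.6 and 87.5 CPM at 6 h and 116 and 118 CPM at day 3. Plod1 then had 220 and 203 CPM at day 5, 573 and 434 CPM at day 7, and 830 and 709 CPM at day 10, with every time point from day 5 above the earlier ones in both libraries (log2 fold change 3.07 at day 10 against 0 h, SE 0.12, adjusted p = 5.27e-12). Plod2, which acts on the chain ends, had 80.4 and 85.7 CPM at day 10 against 74.6 and 68.7 CPM at 0 h, a log2 fold change of 0.21 (SE 0.093, adjusted p = 0.0425) whose sign turned with library totals alone as scaling (-0.14, adjusted p = 0.17). It was also not called by DESeq2 (0.22, adjusted p = 0.065) or without replicate 2 of 0 h (0.15, adjusted p = 0.239). The ratio of Plod1 to Plod2 in CPM per kb was 11.8 and 9.44 at day 10, against 1.36 and 1.57 at 0 h. Plod3, which also adds sugars to hydroxylysine, had 135 and 123 CPM at day 10 against 169 and 183 CPM at 0 h (log2 fold change -0.45, SE 0.076, adjusted p = 3.29e-05). For Plod3 and Plod2, 11.7% and 6.42% of exon bases lie under a gene on the opposite strand (Znhit1 and Gm38391), and the strand setting of the counting is not given in the sources used here, so reads of the 2 strands may be mixed in their values.

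Serpinh1, the collagen chaperone and the highest of the processing genes per length at 0 h, had 1212 and 1293 CPM at 0 h, 1278 and 1313 CPM at 6 h and 1031 and 943 CPM at day 3. Serpinh1 then had 650 and 610 CPM at day 5, 596 and 638 CPM at day 7, and 555 and 548 CPM at day 10 (log2 fold change -1.18 at day 10 against 0 h, SE 0.077, adjusted p = 2.05e-10). Pcolce, which speeds removal of the C-terminal propeptide, had 65.6 and 76.0 CPM at day 10 against 255 and 292 CPM at 0 h (log2 fold change -1.95, SE 0.12, adjusted p = 1.72e-09). In the lysyl oxidase family, Loxl1, known for its part in elastic fibres, had 48.6 and 48.2 CPM at day 10 against 218 and 258 CPM at 0 h (log2 fold change -2.30, SE 0.11, adjusted p = 1.54e-11). Loxl3 had 142 and 171 CPM at 0 h, 222 and 167 CPM at day 3, 34.1 and 37.8 CPM at day 5, 8.65 and 18.6 CPM at day 7, and 11.5 and 9.50 CPM at day 10 (log2 fold change -3.91 at day 10 against 0 h, SE 0.33, adjusted p = 1.38e-05), and 11.6% of its exon bases lie under Htra2 on the opposite strand. Lox itself was low, with 0.179 and 0.689 CPM at day 10 against 2.57 and 4.08 CPM at 0 h (log2 fold change -2.87, SE 0.54, adjusted p = 0.000135). The value was -2.27 without replicate 1 of day 10 and -4.17 without replicate 2 of day 10. Loxl2, under 1 CPM in all libraries, had no count at day 3 and was not called at day 10 against 0 h (0.46, adjusted p = 0.442), and 5.57% of its exon bases lie under Gm27177 on the opposite strand.

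Step by step, no member was called in the first 6 h, and members were called in both directions at every later step. At 6 h against 0 h, none of the 41 was called by edgeR or by DESeq2, beside 0.534% of all genes called higher and 0.212% lower. At an unadjusted p under 0.05 in edgeR, 2 members were higher (Col1a1 and Plod2) and 1 lower (Col3a1). By that measure 409 of the 12740 genes tested were higher and 344 lower, so these numbers do not set the members apart. At day 3 against 0 h, 10 members (24.4%) were higher, beside 33.1% of all genes, and 21 (51.2%) were lower, beside 35.0%. The median log2 fold change was -0.53 over the members (-0.46 with low-count members at their bound) and 0.00 over all genes tested. Among the 12 processing genes, 9 fell at day 3 and 1 rose, Plod1 (0.34, adjusted p = 0.0159), whose call was lost without replicate 1 of 0 h or either day 3 library (adjusted p between 0.0544 and 0.0922). The largest processing fall at day 3 among genes above 10 CPM was that of P4ha2 (-1.43, SE 0.15, adjusted p = 3.16e-07).

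At day 5 against day 3, 14 members (34.1%) rose, beside 34.0% of all genes, and 13 (31.7%) fell, beside 31.0%. All 4 beaded filament chains were among those that rose, and Serpinh1, Loxl3, Col8a1, Col18a1 and Col7a1 were among those that fell. Of these chains, Col6a5 had only 22 counts over both day 5 libraries against 1 over both day 3 libraries. It reached 10 counts in 3 libraries, both day 5 libraries among them, so it met the member rule through the group where it is higher. Its place among the members called higher at day 5 is therefore not free of that rule. At day 7 against day 5, 18 members (43.9%) rose, beside 19.0% of all genes, and 8 (19.5%) fell, beside 18.8%. Of the 9 fibril-forming chains 7 rose in that step, among them Col3a1, Col27a1 (2.00, SE 0.13, adjusted p = 1.27e-08) and Col5a3 (0.71, SE 0.14, adjusted p = 0.000922). Without replicate 1 of day 7, or without replicate 1 of day 5, 4 of the 9 were called higher, and the calls of Col11a1, Col1a2 and Col5a2 were lost. With library totals alone as scaling 5 were called higher, with the replicate number as a block 6, and under DESeq2, which gave Col11a1 no adjusted p, 5. Without replicate 1 of day 7 the number called was 16 in place of 26, 11 of them higher, and with library totals alone as scaling 13 rose and 9 fell.

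At day 10 against day 7, 10 members (24.4%) rose, beside 15.1% of all genes, and 2 (4.88%) fell, beside 13.2%. Col27a1 rose again (1.71, SE 0.11, adjusted p = 1.52e-08), as did Col1a1 (1.12, SE 0.25, adjusted p = 0.0032), and the members that fell were Col4a2 (-0.43, SE 0.082, adjusted p = 0.000846) and Loxl1 (-0.50, SE 0.11, adjusted p = 0.00306). Without replicate 2 of day 7, 7 members were called, and Loxl1 was not one of them (-0.30, adjusted p = 0.064). With library totals alone 9 rose and 5 fell, without the filter 12 rose and 9 fell, and in the fit on only the 4 libraries 12 rose and 8 fell. All 41 tested members differed between some of the 6 time points, beside 94.7% of all genes tested. Consecutive steps share a time point, and the day 10 and day 3 comparisons share the 0 h libraries, so the sets of calls are not independent of each other.

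By mean CPM, 10 of the 30 chains peaked at day 10, 6 at day 5, 6 at 0 h, 4 at 6 h, 2 at day 3 and 2 at day 7. Of the 12 processing genes, 7 were highest at 6 h, 1 at 0 h, 1 at day 3 and 3 at day 10, namely P4ha1, P4ha2 and Plod1. Peak times of all genes tested were not analysed here, so these counts do not set the members apart from other genes. Since no member was called between 6 h and 0 h, the order of these 2 times is not settled by the test.

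The wider collagen pathway was read from a list of 75 other genes, of which 70 were counted and 64 tested. At day 10 against 0 h, 25 of them (39.1%) rose, beside 42.8% of all genes tested, 27 (42.2%) fell, beside 39.9%, and 12 were not called, with a median log2 fold change of -0.07, beside 0.06 over all genes tested. Of the fibril organisers, proteins that bind collagen and shape its fibrils, 8 of 11 (72.7%) rose and 2 (18.2%) fell, with a median log2 fold change of 3.46, also with low-count genes set at their bound. Dpt, which encodes dermatopontin, had 9.50 and 10.8 CPM at day 10 against 0.0734 and 0.0618 CPM at 0 h. That is 247 counts over both day 10 libraries against 2 over both 0 h libraries, a ratio of 152 (95% exact counting interval 41.6 to 1261). No library before day 10 had more than 0.435 CPM of Dpt, so it passed the filter on low counts through the group where it is higher. Its ratio and its part in the number and median of the fibril organisers are therefore not free of that filter. The log2 fold change was 4.74 (SE 0.23) for Tnxb, a tenascin, 3.91 (SE 0.25) for the proteoglycan gene Bgn and 3.46 (SE 0.52) for Postn, or periostin. Postn had 868 and 1228 CPM at day 10 and 1390 and 995 CPM at day 3, against 72.4 and 118 CPM at 0 h. Sparc, a collagen-binding matrix protein, had 1057 and 1045 CPM at day 10 against 765 and 844 CPM at 0 h (log2 fold change 0.39, SE 0.11, adjusted p = 0.00331).

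Genes for prolyl and lysyl modification other than the members rose in 2 and fell in 5 (62.5%) of 8 cases, beside 42.8% and 39.9% of all genes tested. P4hb, the partner subunit of prolyl 4-hydroxylase, had 1341 and 1251 CPM at day 10 against 1162 and 1233 CPM at 0 h and was not called (0.11, adjusted p = 0.246), after a low of 501 and 452 CPM at day 3. Of 5 genes for propeptide cleavage 1 rose and 3 fell, among them Bmp1, the C-propeptide protease (-0.85, SE 0.11, adjusted p = 1.16e-06), and Adamts14, an N-propeptide protease (-4.10, SE 0.22, adjusted p = 1.22e-11). Of the other named genes, Loxl4, a further lysyl oxidase, fell by 3.86 on the log2 scale (SE 0.17), Cd44, a receptor for hyaluronan and collagen, by 4.72 (SE 0.091), and Timp1, an inhibitor of matrix metalloproteinases, by 6.25 (SE 0.13), each with an adjusted p below 0.05.

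Of 13 genes for collagen degradation 5 (38.5%) rose and 6 (46.2%) fell, beside 42.8% and 39.9% of all genes tested. Mmp14, a membrane-bound collagenase, had 172 and 165 CPM at day 10 against 336 and 348 CPM at 0 h (log2 fold change -1.02, SE 0.083, adjusted p = 4.74e-09). Mmp2, a gelatinase that Mmp14 activates, had 3.31 and 3.22 CPM at day 10 against 1.40 and 2.10 CPM at 0 h and was not called (0.88, SE 0.40, adjusted p = 0.0529). Chaperones and folding genes gave 2 higher and 4 lower of 8, secretion genes 2 and 2 of 7, and receptors 4 and 4 of 10.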

How the data were processed

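Poly-A+ RNA of 2 independent experiments at 6 time points was sequenced, per the labels' protocols, from libraries of a stranded total RNA kit. The authors deposited 1 table of read counts per gene for all 12 libraries, with a gene length. The submitters' processing notes name STAR as aligner and mm10 as build. The aligner's version, the counting tool, its annotation and its strand setting are not given in the sources at hand. A read shared with a near-identical or overlapping gene may therefore be split. Of 17090 gene identifiers, 17045 were matched to symbols in RefSeq, 4 in GENCODE, and 41 stayed unmatched.

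Counts were scaled by the trimmed mean of M values and tested with edgeR 4.0.16 in R 4.3.3 (robust quasi-likelihood F test, 1 mean per time point, all 12 libraries, 6 residual degrees of freedom) after a filter that left 12740 genes and removed 4350. P-values were adjusted by Benjamini-Hochberg over all tested genes, and an adjusted p below 0.05 is called. SE is the log2 fold change over the square root of F. Tested on simulated counts of day 10 against 0 h over 12445 genes, the fit recovered 64 of 64 genes changed 4-fold, 63 of 70 changed 2-fold and 46 of 66 changed 1.5-fold. Of its 189 calls, 16 were false. Most genes were left unchanged in the simulation, unlike in the data, so it does not check the scaling used here. Levels are CPM, or CPM per kb of the deposited gene length. A group with 0 counts was replaced by 3 counts in all to give a bound, and a group with 1 to 3 counts is given as a ratio with its 95% exact interval. Both cover counting error only.

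All members are named. Of the other pathway genes, those with the 4 largest rises and 4 largest falls at day 10 against 0 h and a mean of at least 10 CPM in the higher group are named, plus 5 fixed genes. Members and lists were chosen with earlier results of these data known. Replicates of a time point correlated at 0.9920 to 0.9946. Deviations of same-numbered libraries correlated between -0.091 and 0.193 over 15 pairs of time points, over 0.1 in 1, so the numbers were not taken to pair libraries. The pair over 0.1 was 0 h with 6 h, and with the replicate number as a block no member was called between these times either. Alternatives were DESeq2 1.42.0, other scaling factors, other filters, a replicate block, only the 4 libraries of a comparison, and leaving out each library.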

Additional observations from a re-analysis of the deposited data

How the results depend on the processing

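Counts of called members held within 1.5 times of their value under most alternatives. The values outside that range concern the last steps: 16 members at day 7 against day 5 without replicate 1 of day 7, in place of 26, and at day 10 against day 7, in place of 12, 21 without the filter, 20 in the fit on only the 4 libraries and 7 without replicate 2 of day 7. Leaving out each library gave 34 to 37 members at day 10 against 0 h, 0 at 6 h against 0 h, 27 to 31 at day 3 against 0 h, 24 to 28 at day 5 against day 3, 16 to 26 at day 7 against day 5, and 7 to 14 at day 10 against day 7. With the replicate block the counts were 36, 0, 30, 27, 24 and 15 in the same order, and 41 for any difference, as without the block. The collagen chain share of all counts ranged over 0.571 to 0.643% at 0 h, 0.569 to 0.604% at 6 h, 0.643 to 0.728% at day 3, 1.39 to 1.51% at day 5, 1.24 to 1.25% at day 7 and 0.984 to 1.01% at day 10 when a library was left out. The sign of Plod2 at day 10 against 0 h turned with library totals alone (-0.14). Of the 37 members called at day 10 against 0 h, 31 kept the call under all alternatives that tested them, as did 25 of 31, 21 of 27, 14 of 26 and 6 of 12 in the later comparisons. The causes of these moves were not tested. Col5a2, Col6a5, Col8a2, Col11a1, Col14a1, Col20a1, Col22a1, Col28a1, Lox, Loxl2 and P4ha3 had under 1 CPM in most libraries, so their differences are read at low depth.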
